A study of Mus musculus with 30 samples.

Results

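The genes described here are those whose values in gonadal white adipose tissue (gWAT, the visceral fat depot beside the testes) did not overlap between formerly obese and lean mice. All animals were wild type male C57BL6/J mice aged 35 weeks. Formerly obese mice ate a high-fat diet (HFD), in which fat supplied 58% of the energy, for 20 weeks and were then switched for 7 weeks to the control diet, in which fat supplied 10.5%. Lean mice were on the control diet for all 27 weeks. Another pair of groups, formerly obese-HFD and lean-HFD, had the same histories followed by 48 h of HFD, and obese mice had HFD for 27 weeks. Each of the 5 groups had 6 arrays, 1 per mouse as labelled, so formerly obese and lean mice are compared on 12 of the 30 arrays. Diet was the sole treatment, and no transgene or drug was used.

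A probe set was taken as a member when all 6 formerly obese arrays lay above all 6 lean arrays, or all lay below them. This held for 105 of 41345 probe sets above (0.254%) and for 92 below (0.223%), 197 in all (0.476%). Some of so many probe sets would separate in this way without any group difference, and how many was not estimated. Membership alone is thus no evidence of a difference. The probe sets above comprised 69 with exactly 1 gene symbol (67 genes), 5 with several symbols and 31 with none. Those below comprised 72 with 1 symbol (71 genes), 5 with several and 15 with none. A mean level over 16 on the linear scale, 4 on the log2 scale, was reached in at least 1 group by 93 of the 105 and by 74 of the 92. The remaining 12 and 18 lay lower. Several of these were olfactory receptors, and the small RNA Mir378a was also among them.

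White adipose tissue is made of lipid-storing adipocytes set in a stroma of fibroblast-like precursors, vessels, mesothelium and resident immune cells. In obesity the visceral depot takes in macrophages, many of them gathered around dying adipocytes, and T cells, natural killer (NK) cells and B cells also accumulate. Interferon-gamma made by lymphocytes raises antigen-processing genes, guanylate-binding proteins and the endothelial adhesion molecule VCAM-1 in other cells. In RNA from whole tissue, fewer cells of a type and less RNA per cell cannot be told apart.

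Array medians of the 12 arrays ran from 4.88 to 4.951 log2, and correlations between arrays from 0.9597 to 0.984. The median correlation was 0.975 among formerly obese arrays, 0.9713 among lean arrays and 0.9736 between the groups, so the groups did not separate as wholes. Formerly obese replicate 5 correlated least with its own group (median 0.9714) and replicate 4 next (0.9729), compared to 0.9782 to 0.9798 in the other 4. The adipocyte hormone gene Adipoq, a check of the labelled tissue, averaged 11.64 log2 in formerly obese and 11.71 log2 in lean mice. Adjusted over all probe sets, 0 were called in limma (0% at adjusted p under 0.10 with a fold over 1.3), the smallest adjusted p was 0.127, 6 probe sets had one under 0.20 (0.0145%), and 2861 probe sets (6.92%) had an unadjusted p under 0.05. Differences below are therefore described as higher or lower on these arrays, and each is a log2 difference ± the SE from limma. The study itself reported 6 genes for this comparison at a fold over 1.3 and a false discovery rate under 0.10. They were Vcam1, Lyz1, H2-Q5, Fbn1, Nmb and Gm26523, and why the 0 calls here differ from that was not tested.

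Since the arrays themselves chose the members, the size of a difference and its p in this comparison are given as description. In the members above, the difference ran from 0.075 to 1.56 log2 with a median of 0.40, and 56 had a fold over 1.3. In those below it ran from -1.21 to -0.11 log2 with a median of -0.32, and 24 had a fold over 1.3. The groups often nearly touched. The gap between the nearest formerly obese and the nearest lean array had a median of 0.044 log2 in the members above and 0.031 log2 in those below, and was under 0.1 log2 in 164 of 197. Just inside the rule stood Mex3b (gap 0.001), Gna11 (0.002) and Lrrc45 (0.002), and just outside it, with tied values, stood Ndrg2, Lipg and Usp39.

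Nmb on chromosome 7 encodes neuromedin B, a small peptide hormone of the bombesin family that acts through its own receptor. Its expression had a lowest value of 8.71, a median of 8.85 and a highest value of 9.06 log2 in formerly obese mice, against 7.97, 8.14 and 8.43 log2 in lean mice. The formerly obese arrays sat in a narrow band, 3 of them at 8.71 and 3 between 8.98 and 9.06, and the whole band lay 0.276 log2 above the highest lean array. Nmb was higher by 0.72 ± 0.10 log2 (adjusted p = 0.127, limma). In obese mice, compared to the same lean arrays, it differed by 0.17 log2 (adjusted p = 0.482, limma). The receptor gene Nmbr averaged 3.27 log2 in formerly obese and 3.35 log2 in lean mice, both under the level of 4 log2.

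Vcam1 on chromosome 3 encodes the cell adhesion molecule that binds the integrin VLA-4 on leukocytes. It ran from 7.27 over a median of 7.57 to 7.91 log2 in formerly obese mice, against 6.65, 6.85 and 6.96 log2 in lean mice. Every formerly obese array was at least 0.312 log2 above every lean one, with replicates 3 and 4 lowest and replicate 6 highest. The difference was 0.70 ± 0.11 log2 (adjusted p = 0.152, limma), and in obese mice, set against the same lean arrays, it was 0.81 log2. Of 14 measured leukocyte adhesion molecules, Vcam1 was the only one outside the lean range and the only one with an unadjusted p under 0.01. Icam1, which binds leukocyte integrins of the beta-2 class, differed by 0.20 ± 0.15 log2 and overlapped.

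H2-Q5 on chromosome 17 is a gene of the Qa region of class I histocompatibility genes. One of its probe sets, 17337110, held 5.26, 5.62 and 5.96 log2 (lowest, median, highest) in formerly obese mice, against 4.65, 4.92 and 5.05 log2 in lean mice. The groups were 0.214 log2 apart, and replicate 3 was the formerly obese array nearest to lean. The difference was 0.76 ± 0.11 log2 (adjusted p = 0.134, limma). A second probe set of the same symbol differed by 0.37 ± 0.09 log2 and overlapped between groups, with 5.47 to 5.86 log2 in formerly obese and 5.21 to 5.52 log2 in lean mice. A probe set shared by the related genes H2-Q6 and H2-Q8 also lay wholly above, by 0.56 log2. Genes of this region are near copies of each other, so which copy the probes read is uncertain.

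Lyz1 on chromosome 10, which lay wholly below, encodes the P-type lysozyme, an enzyme that cuts bacterial cell walls and is best known from Paneth cells of the gut. It held 9.17, 9.46 and 9.69 log2 in formerly obese mice, against 10.04, 10.20 and 10.46 log2 in lean mice. No array of either group came within 0.348 log2 of the other group. Lyz1 was lower by 0.77 ± 0.11 log2 (log2 difference -0.77, adjusted p = 0.127, limma), and in obese mice, against the same lean arrays, the difference was -1.44 log2. Its neighbour and close paralog Lyz2, the M-type lysozyme of macrophages, had 11.36 to 11.93 log2 in formerly obese and 11.48 to 11.75 log2 in lean mice and differed by 0.07 ± 0.10 log2. The paralogs thus stood apart on these arrays, Lyz1 outside the lean range and Lyz2 inside it for 3 of the 6 formerly obese arrays.

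Probe sets with no symbol in the annotation used here were as wide, and the study's own lists name them Gm26523 and Fbn1, the gene of the microfibril protein fibrillin-1. Probe set 17229110 was at 5.96, 6.28 and 6.61 log2 in formerly obese mice, against 4.87, 5.29 and 5.58 log2 in lean mice, a difference of 0.98 ± 0.13 log2 (adjusted p = 0.127, limma). Probe set 17390879 was at 7.88, 8.34 and 8.56 log2 in formerly obese mice, against 8.84, 9.28 and 9.51 log2 in lean mice, a difference of -0.93 ± 0.14 log2 (adjusted p = 0.131, limma). In probe set 17390879, 5 formerly obese arrays lay between 8.33 and 8.56 log2 and replicate 5 stood below them. Obese mice, against the same lean arrays, differed by 0.97 log2 in the first and by 0.25 log2 in the second.

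**Figure D1:**
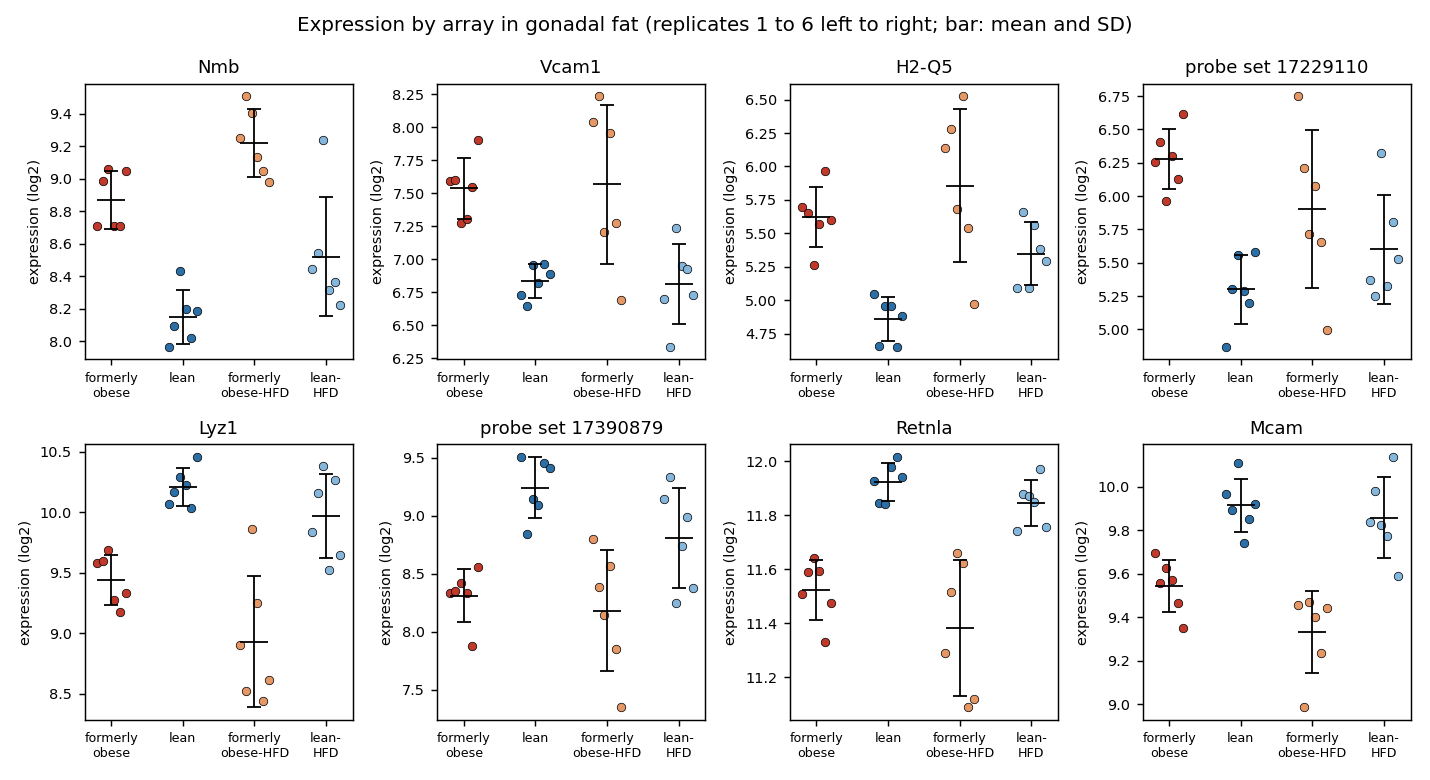
Expression (log2, vertical axis) of 6 genes and 2 probe sets with no symbol in every array of the formerly obese, lean, formerly obese-HFD and lean-HFD groups, replicates 1 to 6 from left to right, with the mean and SD as a bar (n = 6 per group). Formerly obese and lean arrays do not overlap in any panel, while in the refed groups they stay apart in Retnla and Mcam only.

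Promoter windows of RefSeq, read around the start of each gene on GRCm38.p6, were at hand for 50 of the genes above (64 promoters) and 49 of those below (59 promoters). Those of Gbp5 (chr3:142496684-142496983, plus strand) and Nkg7 (chr7:43436888-43437187, plus strand) are shown as examples of an interferon-induced and a lymphocyte gene that lay above, and those of Nmb (chr7:80905013-80905312, minus strand) and Lyz1 (chr10:117292819-117293118, minus strand) because these genes were among the widest apart in each direction:
Gbp5: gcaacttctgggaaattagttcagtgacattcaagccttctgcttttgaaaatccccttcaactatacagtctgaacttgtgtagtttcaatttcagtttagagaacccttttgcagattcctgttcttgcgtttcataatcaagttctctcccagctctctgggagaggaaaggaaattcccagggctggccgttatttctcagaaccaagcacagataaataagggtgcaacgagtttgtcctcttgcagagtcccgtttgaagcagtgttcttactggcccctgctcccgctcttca
Nkg7: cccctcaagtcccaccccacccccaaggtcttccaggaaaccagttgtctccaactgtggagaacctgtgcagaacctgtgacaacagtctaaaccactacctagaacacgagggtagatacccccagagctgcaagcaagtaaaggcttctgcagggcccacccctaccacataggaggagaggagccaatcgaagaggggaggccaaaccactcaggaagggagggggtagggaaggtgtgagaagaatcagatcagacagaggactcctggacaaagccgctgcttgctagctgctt
Nmb: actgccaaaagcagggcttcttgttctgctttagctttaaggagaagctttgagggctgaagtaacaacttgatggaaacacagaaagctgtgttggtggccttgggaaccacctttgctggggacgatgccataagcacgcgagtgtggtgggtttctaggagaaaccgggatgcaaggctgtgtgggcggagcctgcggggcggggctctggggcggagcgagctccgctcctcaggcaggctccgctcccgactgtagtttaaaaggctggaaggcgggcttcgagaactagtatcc
Lyz1: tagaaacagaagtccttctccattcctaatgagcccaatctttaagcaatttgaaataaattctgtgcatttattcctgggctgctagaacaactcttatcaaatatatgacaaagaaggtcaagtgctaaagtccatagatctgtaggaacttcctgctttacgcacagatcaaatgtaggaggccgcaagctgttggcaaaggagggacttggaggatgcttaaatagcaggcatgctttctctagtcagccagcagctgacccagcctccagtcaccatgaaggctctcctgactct
Vcam1 and H2-Q5 were not matched.

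Immune receptors led the named members above. Il7r on chromosome 15, the receptor chain for interleukin-7 on T cells and innate lymphoid cells, ran from 5.75 over a median of 6.86 to 8.35 log2 in formerly obese mice, against 4.86, 5.34 and 5.74 log2 in lean mice. The lowest formerly obese array was 0.011 log2 above the highest lean array, whereas replicates 2, 5 and 6 were at 7.499, 7.67 and 8.35 log2. The difference of 1.56 ± 0.41 log2 was thus carried by 3 arrays at 2.17 to 3.02 log2 and by 3 at 0.42 to 0.89 log2 above the lean mean. Tlr13 on chromosome X, a mouse sensor of bacterial ribosomal RNA in endosomes, ran from 5.20 over 5.80 to 7.59 log2 in formerly obese mice, against 4.31, 4.82 and 5.16 log2 in lean mice. Replicate 6 stood far above the next array at 6.15 log2, and without it the difference was 0.88 instead of 1.19 log2.

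Formerly obese replicate 6 was also highest in some other immune genes among the named members. Clec7a (dectin-1, a receptor for fungal glucans) was higher by 0.84 ± 0.19 log2, Gpr65 (a proton-sensing receptor) by 0.84 ± 0.20 log2 and Mpeg1 (perforin-2, a pore-forming protein of phagocytes) by 0.77 ± 0.17 log2. Clec12a, an inhibitory lectin receptor that senses uric acid crystals, was at 8.11, 8.48 and 9.68 log2 in formerly obese mice, against 7.56, 7.91 and 8.10 log2 in lean mice. In each of these 4 genes replicate 6 was highest, and its share of the summed differences was 30.5% to 41%. Was, the actin regulator of blood cells missing in Wiskott-Aldrich syndrome, was higher by 0.40 ± 0.12 log2 with the same array farthest out. In obese mice, which share the lean arrays and in which 3.93% of all probe sets rose and 2.11% fell against them, the differences were 1.96 log2 for Clec7a, 1.42 log2 for Gpr65, 1.84 log2 for Mpeg1 and 1.85 log2 for Clec12a.

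The lymphocyte genes Nkg7, Klrd1 and Gpr174, unlike Il7r, were highest in formerly obese replicate 5. Nkg7, a protein of cytotoxic granules, was at 6.54, 7.04 and 7.30 log2 in formerly obese mice, against 5.86, 6.25 and 6.52 log2 in lean mice. Klrd1, the CD94 chain of NK receptors, was at 5.62, 5.79 and 6.804 log2 in formerly obese mice, against 4.66, 5.33 and 5.40 log2 in lean mice. Replicate 5 was highest in both. It held 24.1% of the summed differences in Nkg7, and 36.3% in Klrd1, where it stood alone above an otherwise tight group of 5.62 to 5.90 log2. Gpr174, a lysophosphatidylserine receptor of lymphocytes, was higher by 0.58 ± 0.18 log2, and its low level (3.67 to 4.81 log2 in formerly obese and 3.39 to 3.67 log2 in lean mice) sat near the bottom of the scale. Replicates 2 and 5 lay 1.03 and 1.28 log2 above the lean mean and the other 4 arrays 0.15 to 0.47 log2.

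Members with smaller differences included an interferon-induced and an antigen-processing gene, Gbp5 and Psmb9, whereas H2-Q5 of the antigen-processing list, described above, had a difference of 0.76 log2. Gbp5, a guanylate-binding protein that helps assemble inflammasomes, was at 6.37, 6.55 and 6.78 log2 in formerly obese mice, against 5.85, 6.03 and 6.21 log2 in lean mice, a difference of 0.51 ± 0.09 log2. Psmb9, a subunit of the immunoproteasome, was higher by 0.37 ± 0.08 log2 on 8.80 to 9.16 log2 in formerly obese and 8.46 to 8.67 log2 in lean mice. Fgl2, a fibrinogen-like protein of T cells and macrophages, was higher by 0.57 ± 0.14 log2. The farthest array held 22.6% to 26.1% of the summed differences in these 3 genes. In obese mice, compared to the same lean arrays, Gbp5 differed by 0.04 log2, Psmb9 by 0.21 log2 and Fgl2 by 0.15 log2, none of which passed the test, while the first H2-Q5 probe set rose by 0.66 log2 (adjusted p = 0.0164, limma).

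Stromal and metabolic genes completed the named members above. The gelatinase gene Mmp2 was higher by 0.56 ± 0.12 log2 and Mmp14, the membrane-bound protease that activates it, by 0.45 ± 0.11 log2. Dcn, the collagen-binding proteoglycan decorin of fibroblasts, was higher by only 0.17 ± 0.06 log2 at a level of 12.16 to 12.27 log2 in formerly obese and 11.96 to 12.09 log2 in lean mice. Inmt, an enzyme that transfers methyl groups to tryptamine, was at 10.01, 10.20 and 10.24 log2 in formerly obese mice, against 8.99, 9.60 and 9.996 log2 in lean mice. The formerly obese arrays were close together (SD 0.0903) while the lean arrays spread widely (SD 0.431, n = 6 each), so that even formerly obese values stood beside a wide lean group. Fmo2, a flavin-containing monooxygenase, was higher by 0.59 ± 0.11 log2. In obese mice, against the same lean arrays, Inmt fell (log2 difference -0.83, adjusted p = 0.0505, limma) and Fmo2 differed by -0.07 log2 (adjusted p = 0.858, limma). Further members above, chosen for mention after their values were seen, were the stromal transcription factor genes Osr1 (0.50 log2) and Tcf21 (0.45 log2), the axon guidance receptor Robo1 (0.41 log2), the telomere-binding proteins Pot1b (0.44 log2) and Terf1 (0.28 log2), and 3 probe sets of the predicted gene 4933409K07Rik (0.67 to 0.71 log2), a multicopy locus whose probe sets are not independent.

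The named members below included adipocyte and secreted proteins. Ppp1r1a, an inhibitor of protein phosphatase 1 regulated by cAMP signalling, was at 8.39, 8.68 and 9.29 log2 in formerly obese mice, against 9.29, 9.53 and 9.75 log2 in lean mice. The groups missed overlap by 0.005 log2, with formerly obese replicate 3 at the edge and replicates 2, 5 and 6 farthest out at 8.55, 8.39 and 8.41 log2. Retnla, also called Fizz1 or RELM-alpha and a product of alternatively activated macrophages and adipose tissue, was at 11.33, 11.55 and 11.64 log2 in formerly obese mice, against 11.84, 11.93 and 12.02 log2 in lean mice. The arrays of each group lay close together, and the group difference was -0.40 ± 0.07 log2. Lrg1, a secreted glycoprotein linked to TGF-beta signalling and vessel growth, differed by -0.43 ± 0.11 log2 in formerly obese mice and by 0.78 log2 in obese mice against the same lean arrays. Plin4, a lipid droplet coat protein of adipocytes, differed by -0.29 ± 0.10 log2.

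Surface and signalling proteins formed another group below. Emp1, a small membrane protein of epithelia, differed by -0.51 ± 0.11 log2, Mcam, the CD146 adhesion molecule of vessel walls, by -0.37 ± 0.08 log2 and the intracellular growth factor homolog Fgf11 by -0.47 ± 0.08 log2. Rap1gap2, which switches off the small GTPase Rap1, differed by -0.44 ± 0.13 log2 and Ttc39c by -0.58 ± 0.12 log2. Ppp1r3e, which steers protein phosphatase 1 to glycogen, differed by -0.37 ± 0.09 log2 and Tmem97, the sigma-2 receptor of the endoplasmic reticulum, by -0.38 ± 0.09 log2. Ino80c, a subunit of a chromatin remodelling complex, Trp73, a relative of p53, and Dchs1, a giant cadherin, had differences of -0.38, -0.37 and -0.35 log2. Sufu, the brake on hedgehog signalling, lay below with 2 probe sets (-0.34 ± 0.08 and -0.34 ± 0.10 log2). Fzd4, a Wnt and norrin receptor (-0.29 log2), the copper amine oxidase Aoc3 of adipocytes and vessels (-0.25 log2) and the secretory pathway genes Uap1, Ssr2, Sec23a, Galnt2 and Surf4 (-0.30 to -0.14 log2) were added after their values were seen.

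How evenly the 6 formerly obese arrays carried a difference was measured as the distance of the nearest array from the lean mean divided by that of the farthest, so that 1 means 6 equal arrays. The median was 0.362 in the members above (0.0915 to 0.67) and 0.371 in those below (0.0975 to 0.683). The evenness was 0.5 or more in 17 members above and 13 below, and under 0.25 in 23 above and 15 below. Among named genes with a fold over 1.3, Inmt (0.67), Nmb (0.614), Fgl2 (0.587), Fgf11 (0.551) and Fmo2 (0.509) were the most even. Gpr174 (0.114), Clec12a (0.129), Il7r (0.139), Tlr13 (0.14) and Was (0.16) were the least even. The receptors and granule genes of immune cells (Il7r, Tlr13, Clec7a, Gpr65, Clec12a, Nkg7, Klrd1 and Gpr174) lay between 0.114 and 0.294. Psmb9 (0.368) and H2-Q5 (0.363) lay close to the median, and Vcam1 (0.411), Gbp5 (0.447) and Lyz1 (0.499) over it. Fgl2 of T cells and macrophages was among the most even, so genes of immune cells were not uneven throughout. The naming rule took in the least even genes, so this grouping carries no test.

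**Figure D2:**
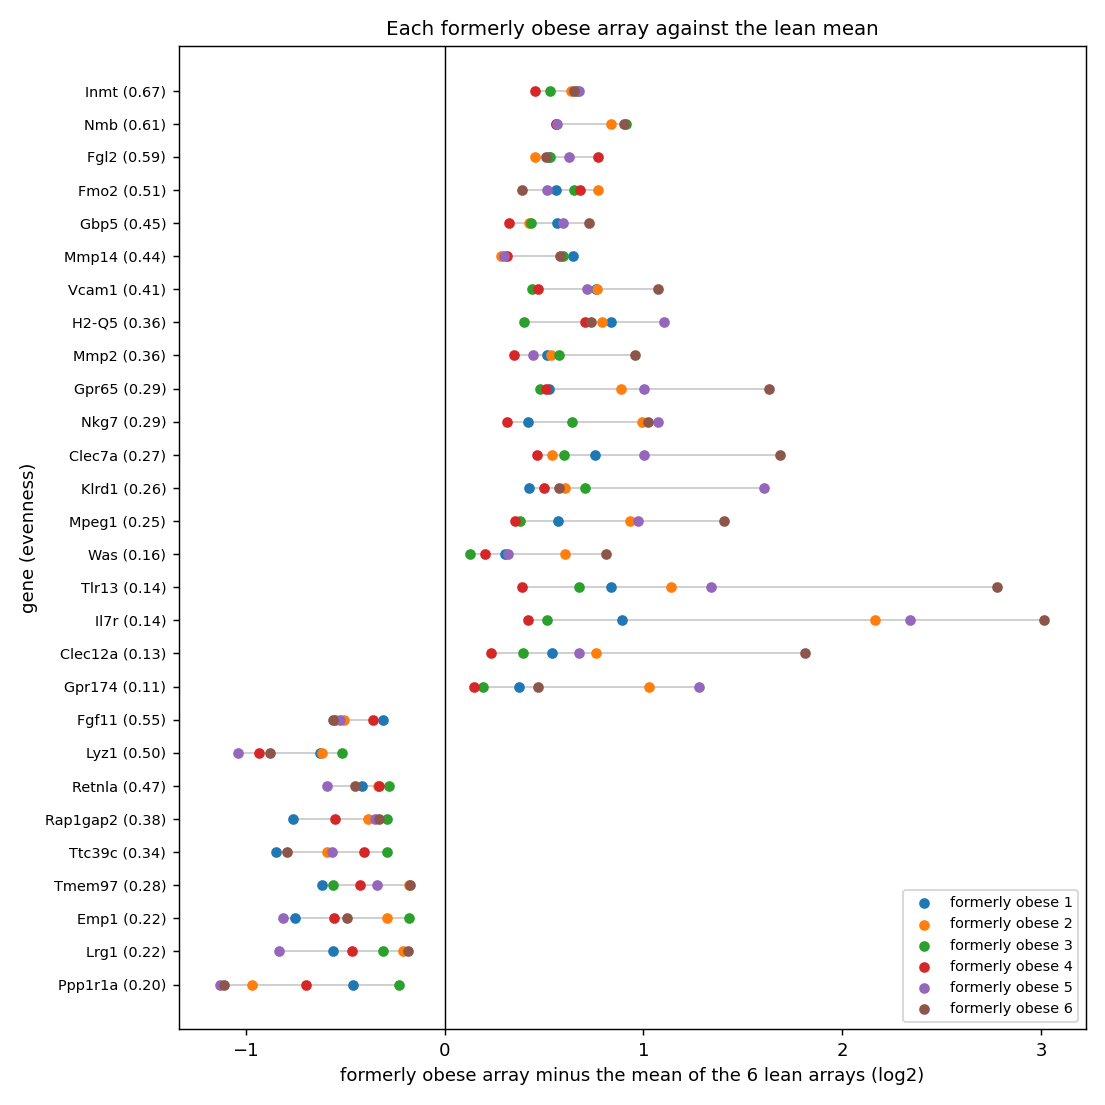
Each formerly obese array minus the mean of the 6 lean arrays (log2, horizontal axis) for the named genes with a fold over 1.3, 1 colour per replicate, with the evenness in brackets. Il7r, Tlr13 and Clec12a stretch far to the right with replicate 6 at the end, while the 6 points of Inmt and Nmb lie close together.

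The arrays did not share the outer place equally. Formerly obese replicate 5 was the farthest from the lean mean in 67 of the 197 members (34%), compared to 21.9% of all probe sets, and replicate 6 in 37 (18.8%, compared to 16.4%). Replicates 1 to 4 were farthest in 28, 18, 22 and 25 members (14.2%, 9.14%, 11.2% and 12.7%), compared to 15.1%, 13.6%, 13.8% and 19.2% of all probe sets. In the members above, replicate 5 led in 33 and replicate 6 in 25, whereas in those below replicate 5 led in 34 and replicate 6 in 12. Replicate 3 was most often the nearest to lean, in 51 members. The farthest array held a median of 26.3% of the summed differences (18.7% to 57.7%). Replicate 5 was also the array that correlated least with its group, and replicate 4, which came next, was not often farthest among the members. Whether the correlation bears on the outer place was not tested. Without it, 162 probe sets lay wholly above and 123 wholly below, while without any other single array the counts were 152 to 225 above and 131 to 216 below.

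**Figure D3:**
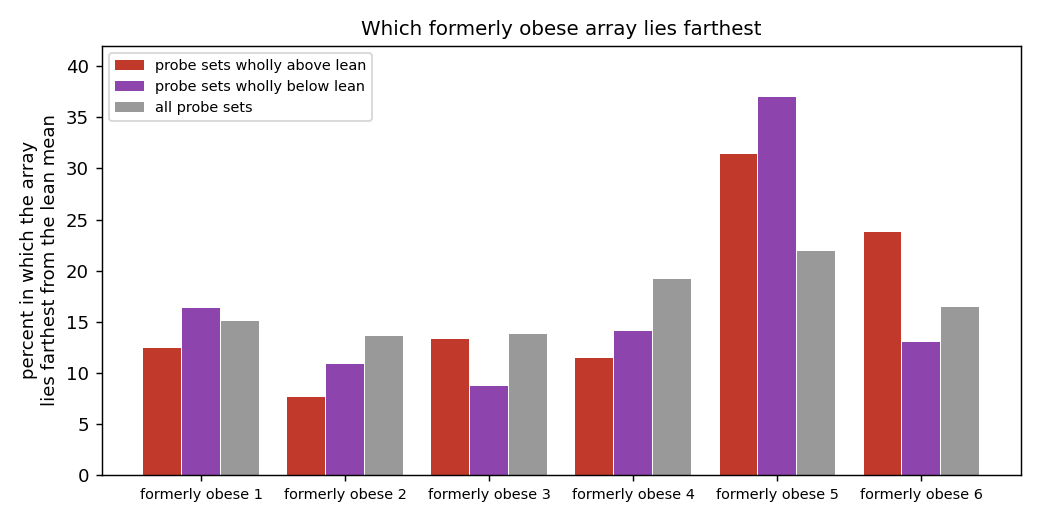
Share of probe sets (percent, vertical axis) in which each formerly obese array lies farthest from the lean mean, for the 105 probe sets wholly above lean, the 92 wholly below and all 41345. Replicate 5 leads in 31.4% of those above and 37% of those below, and replicate 6 in 23.8% of those above.

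Gene lists of cell types and pathways, given as counts with no test of a list, give the setting of the members in the same arrays. Over 22180 genes, 0.289% lay wholly above and 0.307% wholly below, 0.983% were higher and 0.708% lower at an unadjusted p under 0.01, and the median difference was -0.02 log2. Of 16 NK and cytotoxic genes, 2 lay wholly above (Nkg7, Klrd1) and 7 were higher at that p, among them the chemokine gene Ccl5 (1.17 ± 0.26 log2), the activating receptor Klrk1 (0.65 ± 0.20 log2) and the granzyme Gzma (0.62 ± 0.18 log2), with a list median of 0.39 log2. Of 21 interferon-induced genes, 1 lay wholly above (Gbp5) and 7 were higher, with a median of 0.27 log2. Of 18 lipid-associated macrophage genes, 1 lay wholly above (Il7r, which lymphoid cells also express) and 4 were higher at that p, including Mmp12 (2.26 log2) and Gpnmb (1.77 log2), which overlapped between groups. By the mean, 13 of the list were higher and 5 lower (Lpl, Cd36, Fabp5, Ctsl and Apoe), with a median of 0.31 log2. Of 18 macrophage markers, 1 lay wholly above (Mpeg1), 2 were higher at that p, and 14 had a higher and 4 a lower mean (Timd4, Lyve1, Cd163 and Itgam), with a median of 0.20 log2. Of 11 dendritic cell markers, 0 lay wholly above and 0 had an unadjusted p under 0.01, with 7 means higher, 4 lower and a median of 0.03 log2. Probe set 17463530, shared by the dendritic cell marker Clec9a and by Clec1b, has several symbols and was not counted. It lay wholly above, at 5.99 to 6.67 log2 in formerly obese and 5.49 to 5.93 log2 in lean mice.

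Per array, the list score is the mean over a list of each gene's log2 value minus its lean mean. The NK and cytotoxic score was 0.10 to 0.69 in formerly obese arrays and -0.08 to 0.08 in lean arrays. This score holds Nkg7 and Klrd1, which were chosen for not overlapping, and over the other 14 genes, a score added after the values were seen, the groups overlapped, with 0.06 to 0.60 in formerly obese and -0.08 to 0.07 in lean arrays. The lipid-associated macrophage score was 1.35 in replicate 6 and 0.14 to 0.68 in the other formerly obese arrays, against -0.19 to 0.33 in lean arrays. The T cell score reached 0.88 and 0.90 in replicates 2 and 5 and lay between -0.0038 and 0.31 in the other 4, against -0.09 to 0.10 in lean arrays.

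B cell markers varied with the lymphocyte genes in part of the arrays. All 12 measured markers were higher on average (median 0.57 log2), 0 of 12 lay wholly above and 0 had an unadjusted p under 0.01. Their score was 1.60 and 1.48 in formerly obese replicates 2 and 5 and -0.21 to 0.38 in the other 4, against -0.22 to 0.51 in lean arrays. Lymph node stroma markers were also highest in replicate 2 (score 1.03), compared to -0.12 to 0.41 in the other formerly obese and -0.20 to 0.43 in lean arrays. With the B cell and lymph node score as a covariate, chosen as an alternative setting, Il7r differed by 1.06 log2, Gpr174 by 0.28 log2 and Nkg7 by 0.54 log2, compared to 1.56, 0.58 and 0.74 log2 without it.

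Adipocyte genes were lower on average. Of 20 measured, 19 were lower (median -0.18 log2), 2 lay wholly below (Plin4, Ppp1r1a) and 1 was lower at an unadjusted p under 0.01. The score was -0.52 in formerly obese replicate 5 and -0.23 to -0.06 in the other 5, against -0.08 to 0.11 in lean arrays. Replicate 5 was thus low for adipocyte genes and high for T, B and NK cell genes at once. Endothelial markers were split, 5 higher and 7 lower of 12 (median -0.01 log2). Of 20 measured collagens and matrix proteins 14 were lower (median -0.13 log2), and Dcn was the only one of these 20 outside the lean range. Probe set 17390879, which the study's own lists name Fbn1, has no symbol here and was not counted. It lay wholly below, at 7.88 to 8.56 log2 in formerly obese and 8.84 to 9.51 log2 in lean mice.

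Hepatocyte and mesothelial transcripts also varied. All 15 hepatocyte transcripts were lower on average in formerly obese mice (median -0.77 log2), 0 lay wholly below and 1 was lower at an unadjusted p under 0.01. Their score was 0.67 in formerly obese replicate 1 and -1.37 to -0.63 in the other 5, against 1.998 in lean replicate 4 and -1.13 to 0.57 in the other lean arrays. Mesothelial markers, from the lining of the body cavity, were all 11 higher (median 0.31 log2) with scores of -0.17 to 0.48 in formerly obese and -0.42 to 0.63 in lean arrays. No gene of either list was a member. With the hepatocyte score as a covariate the number of probe sets past an unadjusted p under 0.01 with a fold over 1.3 and the level filter was 416, compared to 405 (306 higher, 0.74%, and 99 lower, 0.239%) without it. The part of mesothelial RNA was not tested.

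**Figure D4:**
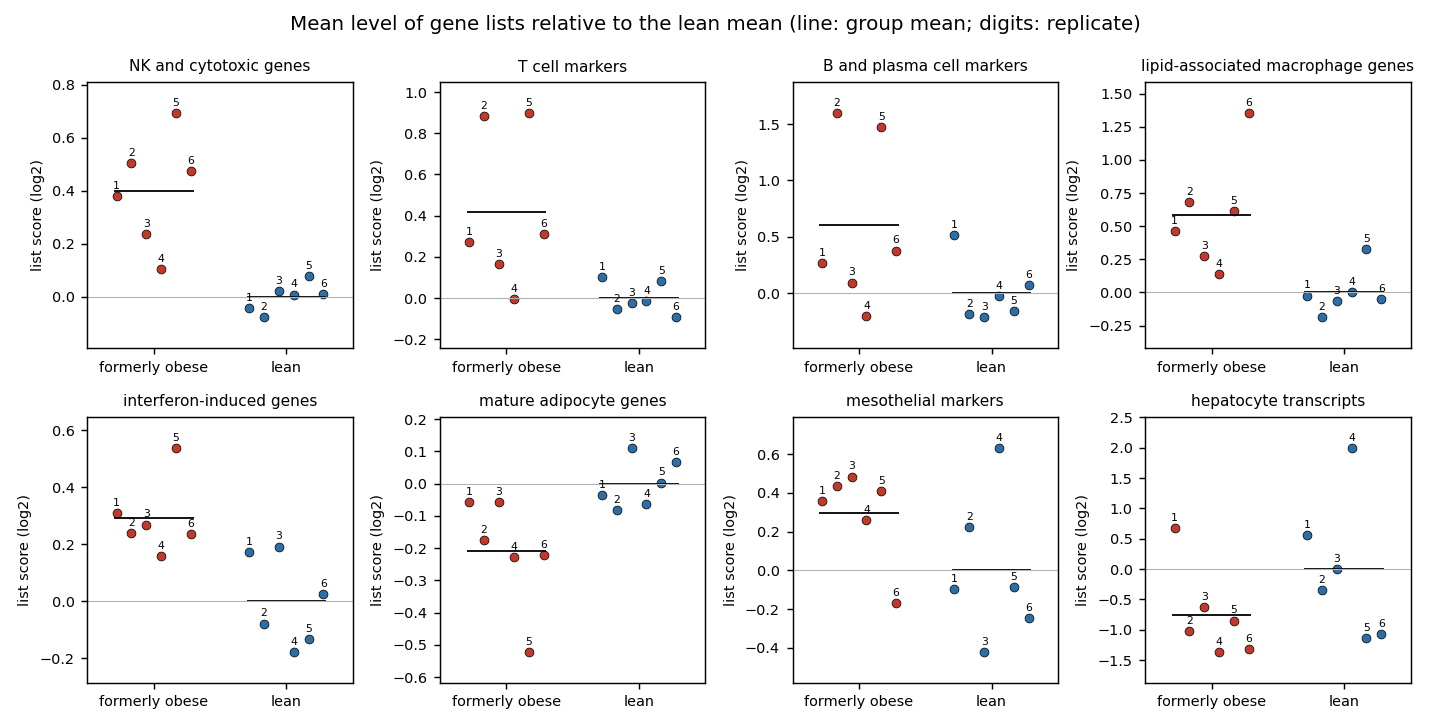
Score of 8 gene lists (mean log2 deviation from the lean mean, vertical axis) in each formerly obese and lean array, numbered by replicate, with the group mean as a line. The groups do not overlap in the NK and cytotoxic panel, whose score includes the members Nkg7 and Klrd1 and overlaps without them, and B cell and T cell scores are high in formerly obese replicates 2 and 5.

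The refed groups gave a measurement the choice of members had not used, since formerly obese-HFD and lean-HFD arrays came from other animals with the same pair of histories. Of the 105 members above, 84 (80%) had a higher mean in formerly obese-HFD than in lean-HFD arrays, where 48.2% of all probe sets did, and 30 (28.6%) did so at an unadjusted p under 0.05, compared to 4.3% of all probe sets. Of the 92 members below, 67 (72.8%) were lower, where 51.8% of all probe sets were, and 23 (25%) were lower at an unadjusted p under 0.05, compared to 3.96%. The median difference there was 0.16 log2 for the members above and -0.09 log2 for those below, beside 0.40 and -0.32 log2 in the arrays that chose them. Adjusted over all probe sets, 0 were called in this comparison (0%), the smallest adjusted p was 0.472 in limma, and the members are not independent of one another, so the shares carry no test.

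Split by size, the counts were as follows. Among the members above with a fold over 1.3, 48 of 56 were on the same side and 25 had an unadjusted p under 0.05, beside 36 and 5 of the 49 smaller ones. Among those below with that fold, 20 of 24 were on the same side and 9 had an unadjusted p under 0.05, beside 47 and 14 of the 68 smaller ones. The 11 members above that belonged to an immune list were all on the same side. Most measured genes of their lists were higher there too, so this count does not set the members apart. Higher were 18 of 18 macrophage markers, 9 of 9 C-type lectin receptors, 21 of 21 interferon-induced genes and 10 of 11 Toll-like receptors. So were 14 of 16 NK and cytotoxic genes, 13 of 16 antigen-processing genes, 10 of 14 adhesion molecules and 13 of 18 lipid-associated macrophage genes. Of the probe sets with no symbol, 23 of 31 above and 7 of 15 below were on the same side. Whether these shares differ by size or annotation was not tested.

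Whole separation was seen again in 8 members, 1 above (0.952% of 105, compared to 0.186% of all probe sets) and 7 below (7.61% of 92, compared to 0.23%). The member above was Fgd4, an exchange factor for the small GTPase Cdc42. Those below included Mcam, Retnla, Sufu (probe set 17365398) and Ssr2 (a subunit of the translocon-associated complex). The others below were Uap1 (an enzyme of UDP-GlcNAc synthesis), Tcaf1 (a regulator of TRP ion channels) and the predicted gene Gm10687. The other Sufu probe set, 17360022, overlapped, at 5.82 to 6.225 log2 in formerly obese-HFD and 6.14 to 6.563 log2 in lean-HFD mice. Mcam was at 8.99, 9.42 and 9.47 log2 in formerly obese-HFD mice, against 9.59, 9.83 and 10.14 log2 in lean-HFD mice, a difference of -0.52 ± 0.11 log2. Retnla was at 11.09, 11.40 and 11.66 log2 in formerly obese-HFD mice, against 11.74, 11.86 and 11.97 log2 in lean-HFD mice, a difference of -0.46 ± 0.11 log2.

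Lyz1 and Nmb differed the same way in the refed groups. Lyz1 ran from 8.44 to 9.86 log2 (mean 8.93) in formerly obese-HFD mice, against 9.53 to 10.38 log2 (mean 9.97) in lean-HFD mice, a difference of -1.04 ± 0.24 log2. Nmb held 8.98, 9.19 and 9.51 log2 in formerly obese-HFD mice, against 8.22, 8.40 and 9.24 log2 in lean-HFD mice, a difference of 0.70 ± 0.16 log2. One array broke the separation of Nmb, lean-HFD replicate 3 at 9.24 log2, and one that of Lyz1, formerly obese-HFD replicate 3 at 9.86 log2. Both genes had an adjusted p of 0.472 in limma on these 12 arrays. With the spread estimated over all 30 arrays, 47 probe sets were called (0.114%), 8 of them members, among these Nmb, Lyz1, Mcam and Retnla (adjusted p = 0.055, 0.055, 0.055 and 0.0585, limma).

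Vcam1 was higher by 0.75 ± 0.25 log2 in formerly obese-HFD mice, with 6.69, 7.62 and 8.24 log2, against 6.34, 6.83 and 7.24 log2 in lean-HFD mice. Its formerly obese-HFD arrays spread widely, with replicates 1, 2 and 4 at 8.04, 8.24 and 7.96 log2 and replicates 3 and 6 inside the lean-HFD range. The first H2-Q5 probe set was higher by 0.51 ± 0.23 log2 with the same replicates 1, 2 and 4 on top. Tlr13 (1.396 ± 0.53 log2), Clec12a (1.01 ± 0.36 log2), Clec7a (0.91 ± 0.39 log2) and Gpr65 (0.90 ± 0.35 log2) were also higher on average, with adjusted p of 0.503 to 0.575 in limma. The macrophage scores of formerly obese-HFD replicates 1, 2 and 4 were 0.82, 1.08 and 0.78, compared to -0.27 to 0.06 in the other 3 and -0.15 to 0.06 in lean-HFD arrays. Il7r differed by 0.69 ± 0.53 log2 and Gpr174 by 0.20 ± 0.22 log2.

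**Figure D5:**
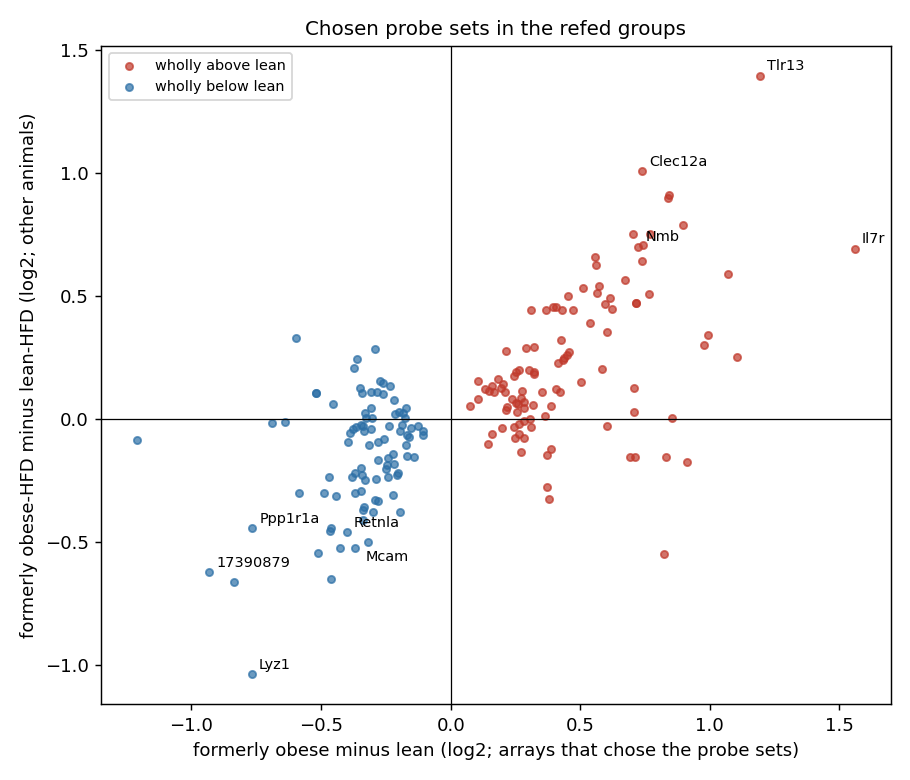
Difference of each of the 197 probe sets in formerly obese minus lean arrays (log2, horizontal axis), which chose them, and in formerly obese-HFD minus lean-HFD arrays of other animals (log2, vertical axis). Of the 105 red points 84 lie above the horizontal zero line, and of the 92 blue points 67 lie below it.

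Whether the history difference itself differed between diets was tested over all probe sets as an interaction, and 0 passed an adjusted p of 0.10 in limma (0%), with 1904 (4.61%) at an unadjusted p under 0.05. By value, 46 of the 197 members (23.4%) lay on opposite sides in the 2 comparisons, 21 of those above and 25 of those below. Dchs1 differed by -0.35 ± 0.10 log2 between formerly obese and lean mice and by 0.13 ± 0.09 log2 between formerly obese-HFD and lean-HFD mice. Of the other members given by name, Mex3b (0.24 and -0.03 log2) and Gna11 (-0.18 and 0.02 log2), both at the edge of the rule, also lay on opposite sides.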

How the data were processed

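Total RNA of gonadal fat was amplified, labelled with biotin and hybridised to Affymetrix arrays, 1 array per sample. The deposited log2 values were made by the authors with RMA in Affymetrix Expression Console 1.4.1.46 per the submitters' processing notes, which corrects background, normalizes quantiles over arrays and summarises probes. Affymetrix intensities before that step were not used here, so effects of that normalization cannot be undone. Gene symbols came from the platform annotation: 23521 probe sets had 1, 1820 several and 16004 none. No pair of arrays was identical (0 found).

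The test between groups of 6 arrays was lmFit and eBayes of limma 3.58.1 (R 4.3.3), two-sided, with Benjamini-Hochberg adjustment over 41345 probe sets. A call needed adjusted p under 0.10, a fold over 1.3 and a level over 16 in 1 group. A looser set used unadjusted p under 0.01 with the same filters. Members were chosen without a test. No consensus motif was searched in the promoters, since none of the tables used here holds one. The members, the 42 gene lists and the rule for named genes were chosen with earlier results of these data known. Named genes are, among members with 1 symbol and level over 16 that are not predicted genes, small RNAs, olfactory or vomeronasal receptors (such as Olfr99, higher by 0.90 log2) or immunoglobulin or T cell receptor segments, the 14 largest differences each way, the 5 most and 5 least even each way with a fold over 1.3, up to 4 of each list by p, those with adjusted p under 0.20, and the genes the study names with Lyz2. A list used 1 probe set per gene, the brightest over the 12 arrays.

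Alternatives were another fit, normalization, filter, covariate, replicate block and leaving out each array. Precision is limited by the number of arrays. The p-values measure only the spread between arrays, since the labels do not say whether other steps were shared. Figures were drawn in Python 3.11.15 (matplotlib 3.10.9).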

Additional observations from a re-analysis of the deposited data

Results flagged for a closer look

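Of 80 groups tested (40 named probe sets in 2 groups), 6 held an array whose gap to the nearest of the others exceeded Dixon's critical value for 6 arrays, which chance does in about 1 in 20 groups. These probe sets were chosen in part for uneven or separated values on the same arrays, so the number of such arrays cannot be read against that rate. Formerly obese replicate 6 was far above the rest in Clec12a (9.684 log2, others 8.106 to 8.636) and in Mmp2 (8.269 log2, others 7.657 to 7.884). Formerly obese replicate 5 was far above the rest in Klrd1 (6.804 log2, others 5.622 to 5.904) and far below them in probe set 17390879 (7.88 log2, others 8.332 to 8.56). Among lean arrays, replicate 3 stood above the others in Plin4 (11.263 log2, others 10.945 to 11.058) and replicate 2 below them in Was (4.566 log2, others 4.844 to 4.982).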

How the results depend on the processing

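The 0 calls at adjusted p became 4 when only probe sets with 1 symbol were tested (Nmb, Lyz1, H2-Q5 and Vcam1). That setting changed both the eBayes fit and the number of probe sets adjusted over, and their parts were not separated. With trend and robust settings in eBayes the calls became 5 (Nmb, Lyz1, Retnla and probe sets 17229110 and 17390879). Leaving out 1 array gave 0 to 4 calls, 2 without formerly obese replicate 2, 3 without formerly obese replicate 3 and 4 without lean replicate 3. The 405 probe sets of the looser set became 228 with 1 symbol only, 269 with the B cell and lymph node score as covariate and 317 to 503 without single arrays. Their split of 306 higher and 99 lower was 264 and 131 with arrays centred on their medians and 272 and 127 after another quantile normalization. The 105 probe sets wholly above became 69 with 1 symbol, 56 with a fold over 1.3, 22 with a gap of at least 0.1 log2, 76 after centring and 152 to 225 without single arrays. The 92 wholly below became 24 with that fold, 11 with that gap, 107 after centring and 123 to 216 without single arrays. Fewer arrays to separate, or a further filter, are built into these counts. In the refed groups the 0 calls became 47 with the fit on all 30 arrays and 0 to 3 without single arrays (3 without lean-HFD replicate 3). The 8 members wholly apart there became 151 on the same side and 53 at an unadjusted p under 0.05. Of the named differences, Lyz2 reversed (-0.0064 log2 with the B cell and lymph node covariate, beside 0.0658), and the cause was not tested. In 14 of 878 recomputations a named probe set passed the adjusted threshold, and 863 left direction and side of the threshold as they were.

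Replicate numbers did not pair the arrays, since same-numbered arrays of the groups correlated at -0.193 to 0.2 after group means were removed and only replicate 6 matched its own number best. With the replicate block, 0 probe sets were called at adjusted p and 375 were in the looser set.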
